A study of Mus musculus with 12 samples.

Results

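The genes described here are 7 genes of cholesterol synthesis and its control: Srebf2, Insig1, Hmgcs1, Idi1, Fdft1, Sqle and Lss. They were taken by name as genes driven by the transcription factor SREBP2, and all 7 were among the 17599 genes with enough reads to be tested, of 38894 genes in the annotation. Their RNA was measured in 12 rhabdomyosarcoma tumors grown from Rd76-9 cells, a mouse line, in the flank of wild-type (WT) C57/Bl6J mice and dissected at day 16. Each of 4 groups had 3 tumors. Vehicle mice (tumors m1, m2 and m3) received saline and empty nanoparticles. VCR mice (m4, m5 and m6) received weekly injections of 0.25 mg/kg of vincristine, a drug that binds tubulin and blocks the mitotic spindle. RCM1-NPFA mice (m7, m8 and m9) received 8 µg of RCM1 per injection, every other day, in nanoparticles that carry folic acid. RCM1 is an inhibitor of the transcription factor FOXM1. The last group (m10, m11 and m12) received both, VCR + RCM1-NPFA, at the same doses. The treatment label of the vehicle tumors also names RCM1 nanoparticles, so groups were taken from the sample titles. Each tumor gave between 29342195 and 32108055 estimated read counts.

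The tumors are grafts of a single cell line, and whole tumor tissue was sequenced. RNA levels were uneven among 8 rhabdomyosarcoma and myoblast markers. Cdh15, an adhesion protein of myoblasts, ranged from 78.1 to 116 TPM (a read level corrected for transcript length and depth). Myf5, a myogenic factor, ranged from 38.8 to 59.9 TPM. Myod1 and Myog, the other defining myogenic factors, were at or near 0 TPM in the vehicle tumors and reached at most 2.19 and 2.44 TPM in any tumor. Mymk and Chrng were under 1 TPM in all tumors, and Chrna1 lay between 0.976 and 3.49 TPM. Des lay between 4.45 and 317 TPM, with 5.77, 4.45 and 5.88 TPM in the vehicle tumors. Host cells contributed as well. Macrophage RNA was abundant in each tumor, with C1qa at 661 to 1048 TPM. RNA of adult muscle fibres differed most: the sum of its 12 markers was between 42.2 and 161 CPM (counts scaled to library size only) in the vehicle tumors, 3794, 12220 and 1663 CPM after VCR, 153, 212 and 18530 CPM after RCM1-NPFA and 2260, 4540 and 452 CPM after VCR + RCM1-NPFA. All VCR and combination tumors were thus above the vehicle tumors. Des was also highest in m9 and m5, so its RNA from the line and from muscle fibres cannot be told apart. Of the keratinocyte and sebaceous gland markers, 5 of 8 were under 1 TPM in all tumors, Krt5 and Krt14 among them. Krt10 lay between 3.25 and 4.37 TPM, Elovl3 between 0.530 and 3.10 TPM and Mgst1 between 11.9 and 21.1 TPM. In tissue of this kind, fewer cells of a type and less RNA per cell cannot be told apart.

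Cells build cholesterol from acetyl-CoA through mevalonate, isoprenoids, squalene and lanosterol. When sterol runs low in the endoplasmic reticulum, the escort protein SCAP carries the SREBP2 precursor to the Golgi, where the proteases encoded by Mbtps1 and Mbtps2 release its active part. That part enters the nucleus, binds sterol regulatory elements (SREs), usually beside CCAAT boxes bound by the factor NF-Y, and raises transcription of the enzymes, of Srebf2 itself and of Insig1, whose product holds SCAP back when sterol is plentiful.

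The start-site regions of the members are shown because the 7 genes moved together in these tumors. RefSeq windows of GRCm38.p6, from 250 bases before to 50 bases after a transcript start, were at hand for 5 of the 7 genes (Srebf2, Hmgcs1, Idi1, Insig1 and Lss). A CCAAT box, searched as CCAAT on either strand, was found in 5 of the 5, against 37.4% of all 32851 windows. The core of an SRE, searched as CACCCCA on either strand, was found in Hmgcs1 and Srebf2, against 7.62% of all windows. The letters of these motifs do not overlap, and a match does not show that a factor binds. The 15 other enzymes of sterol synthesis gave 16 windows from 13 genes. Of these windows, 12 (75.0%) held a CCAAT box and 1 (6.25%) an SRE core. Below are Hmgcs1 and Srebf2, the windows with both motifs, and Idi1, with a pair of CCAAT boxes close to its start. All lie on the plus strand, and capitals mark the motifs, with CCAAT boxes read as ATTGG.
Hmgcs1, chr13:119690101-119690400: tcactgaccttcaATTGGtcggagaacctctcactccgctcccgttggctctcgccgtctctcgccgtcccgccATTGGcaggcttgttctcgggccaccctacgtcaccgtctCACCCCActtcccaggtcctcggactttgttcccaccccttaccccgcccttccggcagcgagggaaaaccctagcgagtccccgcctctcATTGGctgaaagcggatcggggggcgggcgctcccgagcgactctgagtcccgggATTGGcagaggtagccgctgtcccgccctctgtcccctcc
Srebf2, chr15:82147019-82147318: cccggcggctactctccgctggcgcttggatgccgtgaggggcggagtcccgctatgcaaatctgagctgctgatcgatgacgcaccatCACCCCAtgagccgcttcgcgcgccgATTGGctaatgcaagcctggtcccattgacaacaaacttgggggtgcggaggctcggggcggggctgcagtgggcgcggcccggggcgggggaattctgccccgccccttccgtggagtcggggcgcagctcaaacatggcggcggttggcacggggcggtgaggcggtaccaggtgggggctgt
Idi1, chr13:8885356-8885655: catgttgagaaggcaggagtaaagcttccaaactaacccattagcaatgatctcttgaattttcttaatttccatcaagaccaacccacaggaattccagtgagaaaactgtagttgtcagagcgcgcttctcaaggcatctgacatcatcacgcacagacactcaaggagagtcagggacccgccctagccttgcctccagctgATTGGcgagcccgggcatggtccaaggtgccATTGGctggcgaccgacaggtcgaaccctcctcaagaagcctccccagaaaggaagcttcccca
In Hmgcs1 the SRE core began at base 115 of the window and 4 CCAAT boxes at bases 14, 75, 206 and 261. In Srebf2 the SRE core began at base 90 and the CCAAT box at base 116. The boxes of Idi1 began at bases 206 and 237, those of Insig1 and Lss at base 35 and base 189 of their windows.

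One tumor stood apart. In m8, which had received RCM1-NPFA, all 7 members had their highest CPM of the 12 tumors, while 9.61% of all tested genes were highest there. Of the 15 other enzymes of sterol synthesis, 13 were also highest in m8. The lowest CPM of 4 members fell in m12 (VCR + RCM1-NPFA), of 2 in m3 (vehicle) and of 1 in m9 (RCM1-NPFA). The m8 library had 31497456 estimated counts and a normalization factor of 0.995.

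Srebf2 (chr15:82147269-82205379), the gene of the transcription factor itself, was the most abundant of the 7. Its levels were 113, 123 and 120.1 TPM in the vehicle tumors, 116, 99.6 and 108 TPM after VCR, 115.2, 135.2 and 96.0 TPM after RCM1-NPFA and 104, 113 and 99.4 TPM after VCR + RCM1-NPFA. The highest tumor (m8) and the lowest (m9) belonged to the same group, and each treated group overlapped the vehicle tumors. Across the 12 tumors the level differed by 1.41-fold, the smallest range among the members. Of its pair of annotated transcripts, the main one made up 73.6% of the TPM, between 65.6% and 78.1% in single tumors.

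Insig1 (chr5:28071412-28078662), the sterol-dependent brake on SREBP2 processing, stood at 56.1, 56.8 and 37.2 TPM in the vehicle tumors, 53.0, 41.5 and 50.5 TPM after VCR, 49.4, 67.2 and 49.8 TPM after RCM1-NPFA and 61.2, 55.5 and 40.7 TPM after VCR + RCM1-NPFA. Its lowest tumor was a vehicle tumor, m3. Group means lay within 7.13 TPM of each other, while the vehicle tumors alone spanned 19.5 TPM.

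Hmgcs1 (chr13:119690351-119708260) encodes HMG-CoA synthase, which makes HMG-CoA ahead of mevalonate. It was found at 80.1, 80.4 and 60.1 TPM in the vehicle tumors, 70.3, 51.2 and 66.4 TPM after VCR, 67.5, 94.5 and 65.2 TPM after RCM1-NPFA and 78.9, 83.5 and 51.9 TPM after VCR + RCM1-NPFA. The lowest tumors were m5, m12 and m3, from 3 different groups, and no treated group was apart from the vehicle tumors. Its 3 transcripts contributed 40.1%, 36.2% and 23.7% of the TPM.

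Idi1 (chr13:8885606-8892396) encodes isopentenyl diphosphate isomerase, which supplies the building blocks of isoprenoids. Levels were 22.3, 25.5 and 17.9 TPM in the vehicle tumors, 17.2, 13.4 and 20.9 TPM after VCR, 19.6, 24.5 and 15.6 TPM after RCM1-NPFA and 20.5, 18.2 and 12.5 TPM after VCR + RCM1-NPFA. Here m2, a vehicle tumor, was highest by TPM and m8 by CPM. The groups overlapped, and each treated group reached lower than any vehicle tumor.

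Fdft1 (chr14:63145150-63181687) encodes squalene synthase, the first enzyme committed to sterols. It gave 37.5, 37.7 and 27.4 TPM in the vehicle tumors, 33.5, 34.1 and 30.8 TPM after VCR, 32.0, 47.6 and 30.1 TPM after RCM1-NPFA and 33.9, 36.9 and 28.9 TPM after VCR + RCM1-NPFA. Without m8, the tumors lay between 27.4 and 37.7 TPM, the range of the vehicle tumors alone. Among 4 annotated transcripts, 1 carried 94.0% of the TPM.

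Sqle (chr15:59315092-59331193) encodes squalene epoxidase, a rate-limiting step after mevalonate. Its values were 90.2, 108 and 77.3 TPM in the vehicle tumors, 86.2, 62.1 and 82.4 TPM after VCR, 81.0, 125 and 68.9 TPM after RCM1-NPFA and 85.9, 87.6 and 61.7 TPM after VCR + RCM1-NPFA. The range within RCM1-NPFA, 55.9 TPM, was larger than the 14.8 TPM between the highest and the lowest group mean.

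Lss (chr10:76531565-76557139) encodes lanosterol synthase, which closes the sterol rings. Its levels were 26.3, 31.0 and 20.3 TPM in the vehicle tumors, 18.2, 15.5 and 20.3 TPM after VCR, 19.9, 32.1 and 17.9 TPM after RCM1-NPFA and 21.9, 22.1 and 17.2 TPM after VCR + RCM1-NPFA. The VCR tumors were all below the vehicle tumors, by a narrow margin between the highest VCR tumor (20.29 TPM) and the lowest vehicle tumor (20.34 TPM). Over the 12 tumors Lss varied 2.07-fold, the widest range among the 7.

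**Figure D1:**
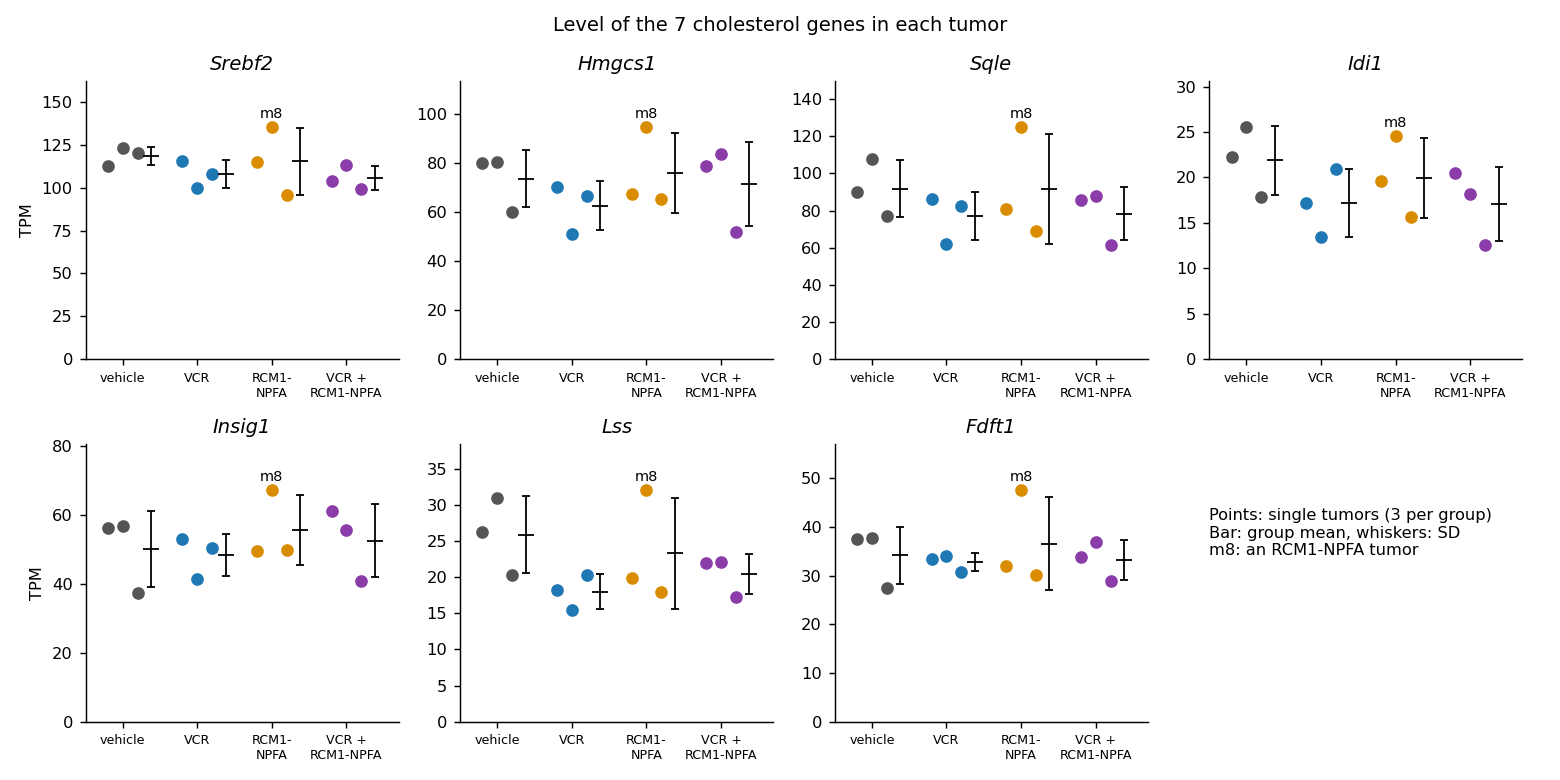
TPM of each member (vertical axis, from 0) in the 3 tumors of each group (points), with the group mean and SD beside them. The tumor m8 is the highest point in 6 of the 7 panels, and the spread within RCM1-NPFA is wider than the differences between group means.

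For each member, group means differed by less than tumors within RCM1-NPFA did. Sqle averaged 91.7 ± 15.2 TPM in the vehicle tumors, 91.6 ± 29.4 TPM after RCM1-NPFA, 78.4 ± 14.5 TPM after VCR + RCM1-NPFA and 76.9 ± 13.0 TPM after VCR (SD, n = 3 each). For Lss the order was vehicle (25.9 ± 5.34 TPM), RCM1-NPFA (23.3 ± 7.67 TPM), the combination (20.4 ± 2.77 TPM) and VCR (18.0 ± 2.39 TPM). For Insig1, RCM1-NPFA (55.5 ± 10.2 TPM) and the combination (52.5 ± 10.6 TPM) came before vehicle (50.03 ± 11.1 TPM) and VCR (48.3 ± 6.05 TPM). No neighbours in these orders were told apart by the tests below.

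Whether VCR changed these genes was asked first. Between VCR and vehicle tumors, 0 of the 7 members passed edgeR's quasi-likelihood test at an adjusted p under 0.1, while 5.54% of all genes did (975 of 17599, 491 higher and 484 lower). That background was itself unstable, with 1 gene called with a term for muscle markers, 0 without m2, m4 or m5 and 1998 without m6. None of the 7 had an unadjusted p under 0.05, against 3890 of all genes. The fitted log2 fold changes ran from -0.31 for Lss (SE 0.20, adjusted p 0.376 by edgeR) to 0.02 for Insig1 (SE 0.17), with a median of -0.16, beside a median of 0.00 over all genes tested. Of these values 6 were below 0, but the members rose and fell together across tumors, so their signs are not separate observations. With a term for muscle markers in the fit, 5 of the 7 signs turned, and Lss was at 0.0040. All VCR tumors held more muscle RNA than all vehicle tumors, so this term and VCR cannot be fully told apart. Lss was the 1 member whose VCR tumors all lay beyond the vehicle tumors, as 24.4% of all genes did in either direction. The exact two-sided permutation test for Lss gave p = 0.1, the smallest that 3 against 3 tumors allow. DESeq2's Wald test on only these 6 tumors called Lss (log2 fold change -0.32, adjusted p 0.0810) among 1417 genes in all, and DESeq2 on all 12 tumors called 0 members.

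RCM1-NPFA alone gave values on both sides of 0. By edgeR 0 of 7 members passed, as did 0.0% of all genes tested (0 of 17599), with 1722 genes and 0 members at an unadjusted p under 0.05. DESeq2 on all tumors called 278 genes and 0 members. The log2 fold changes ranged from -0.10 for Idi1 to 0.19 for Insig1 (SE 0.17, adjusted p 0.763 by edgeR). No member's tumors were apart from the vehicle tumors, against 11.4% of all genes. These values depended on single tumors of the group. Without m8, 6 of the 7 log2 fold changes were below 0, with Lss at -0.30 (SE 0.12, adjusted p 0.451 by edgeR) and Sqle at -0.28 (SE 0.16), and Insig1 was at 0.01. Without m9, all 7 were above 0, from 0.06 for Idi1 to 0.27 for Insig1.

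After VCR + RCM1-NPFA, edgeR called 0 of 7 members and 0.0% of all genes (0 of 17599), with 1285 genes and 0 members at an unadjusted p under 0.05. DESeq2 on all tumors called 60 genes and 0 members. The lowest log2 fold change was that of Idi1 (-0.37, SE 0.20, adjusted p 0.706 by edgeR), followed by Lss at -0.28, Sqle at -0.24 and Srebf2 at -0.18, and Insig1 was at 0.06. Without m12 the value was -0.22 for Idi1 and -0.12 for Sqle, and with the muscle term it was -0.13 for Idi1 and -0.03 for Lss. By CPM the Lss tumors were apart from the vehicle tumors, as 12.6% of all genes were, but by TPM they overlapped. These 3 comparisons share the vehicle tumors.

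**Figure D2:**
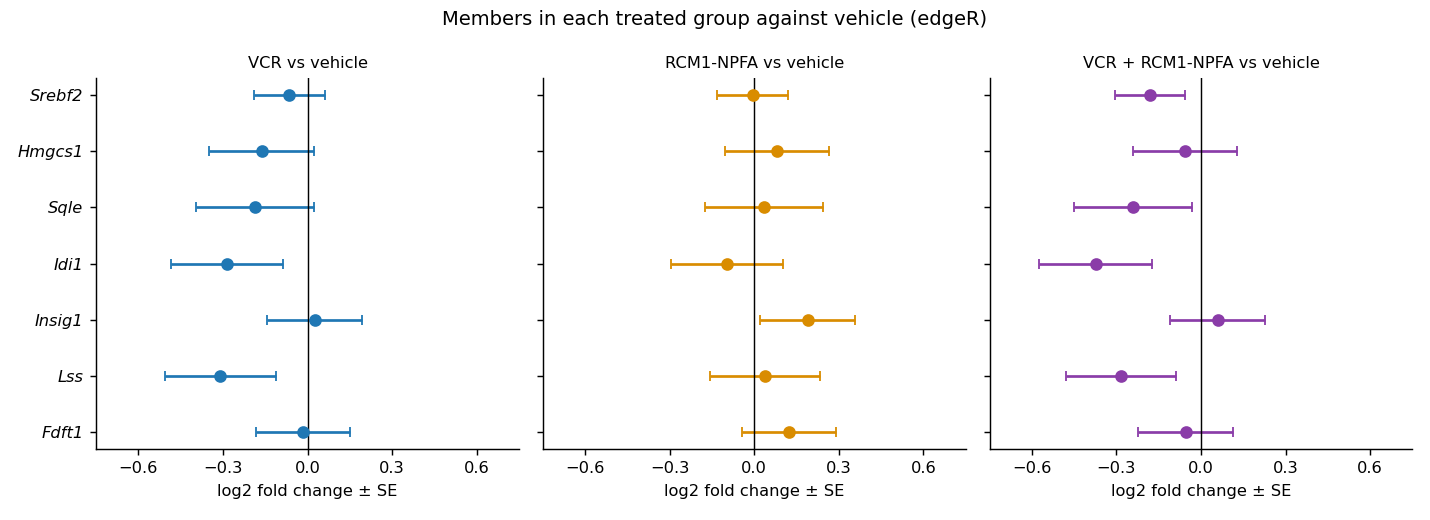
Fitted log2 fold change of each member (horizontal axis) with its standard error, for VCR, RCM1-NPFA and VCR + RCM1-NPFA tumors against vehicle, 3 tumors per group. All values lie between -0.37 and 0.19, and none passed the test.

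The other contrasts of the design gave the same count. Adding RCM1-NPFA to VCR left all 7 members within 0.12 of the VCR tumors on the log2 scale (Srebf2 was farthest, at -0.12), with 0 members called and 0.0% of all genes by edgeR. Adding VCR to RCM1-NPFA gave values from -0.32 (Lss) to -0.13 (Insig1), with 0 members called and 0.0% of all genes. Without m8 these values ran from -0.08 (Idi1) to 0.08 (Hmgcs1), and 2 of 7 were below 0. Averaged over RCM1, the VCR effect was below 0 for 7 of 7 members, from -0.32 for Lss (SE 0.14, unadjusted p 0.0430 and adjusted p 0.467 by edgeR) to -0.05 for Insig1, beside 8655 of the 17599 genes below 0, with 0 members called and 0.0% of all genes. Without m8 the VCR average was below 0 for 5 of 7 members, with Lss at -0.15, Idi1 at -0.18, Fdft1 at 0.03 and Insig1 at 0.04. Without m9 it moved the other way, to -0.42 for Lss and -0.37 for Idi1. The exact permutation test of this effect, with labels exchanged within the levels of RCM1, gave p = 0.0750 for Lss and p = 0.1 for Idi1. Averaged over VCR, the RCM1 effect ran from -0.09 for Idi1 to 0.11 for Insig1, with 0 members called and 0.0% of all genes by edgeR. Without m8 it was below 0 for 6 of 7 members, in place of 3. The interaction of the drugs was called for 0 members and 0.0% of all genes, and was below 0 for 5 of 7 members with m8 and for 0 of 7 without it. At an unadjusted p under 0.05 these 5 contrasts held 925, 364, 1846, 439 and 2437 genes, among them 1 member, Lss in the VCR average, and DESeq2 on all tumors called 0, 0, 160, 0 and 467 genes and 0 members.

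The members varied together from tumor to tumor. Each member's log2 CPM was compared with that of each other member over the 12 tumors, which share library and normalization, and all 21 correlations were above 0. Pearson's r ranged from 0.297 (Srebf2 with Insig1) to 0.922 (Sqle with Lss), with a median of 0.762. Among the 15 pairs without Srebf2, r was between 0.537 and 0.922. With the group means taken off, so that only differences between tumors of the same treatment were left, the median over the 21 pairs was 0.782. By rank, Spearman's rho ranged from 0.238 to 0.860, with a median of 0.615. Without m8, where all 7 peaked, r was above 0 for 20 of the 21 pairs, from -0.20 to 0.905, with a median of 0.549 over 11 tumors. The members were not unusually variable: the SD of log2 CPM was 0.159 for Srebf2 and between 0.208 and 0.286 for the others, against a median of 0.203 over all genes tested.

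The mean of the 7 members, each scaled to its own SD over the 12 tumors, placed tumors of the same treatment far apart. It was 2.13 in m8, then 0.768 in m2 (vehicle), 0.333 in m1 (vehicle), 0.227 in m11 (VCR + RCM1-NPFA) and 0.148 in m4 (VCR). The lowest were m5 (VCR, -0.681), m9 (RCM1-NPFA, -0.860) and m12 (VCR + RCM1-NPFA, -1.32). RCM1-NPFA therefore held both the first and the eleventh of the 12 tumors. Adult muscle fibre markers were highest in m9 and m5, which ranked low, but stood at 452 CPM in m12, the lowest, and at 212 CPM in m8. With the muscle markers as a term in the edgeR fit, 0 members were called in these comparisons. Summed macrophage markers were 2154 CPM in m8 and 2452 CPM in m12, and summed proliferation genes were 3398 CPM in m8, 3388 CPM in m2 and 2797 CPM in m12. Summed adipocyte markers were 31.6 CPM in m8 and 20.1 CPM in m12, with the highest sum, 156 CPM, in m2. Summed endothelial markers lay between 118 and 217 CPM and summed lymphocyte markers between 3.16 and 30.6 CPM in the 12 tumors. The part of these lists in the order of the tumors was not tested.

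**Figure D3:**
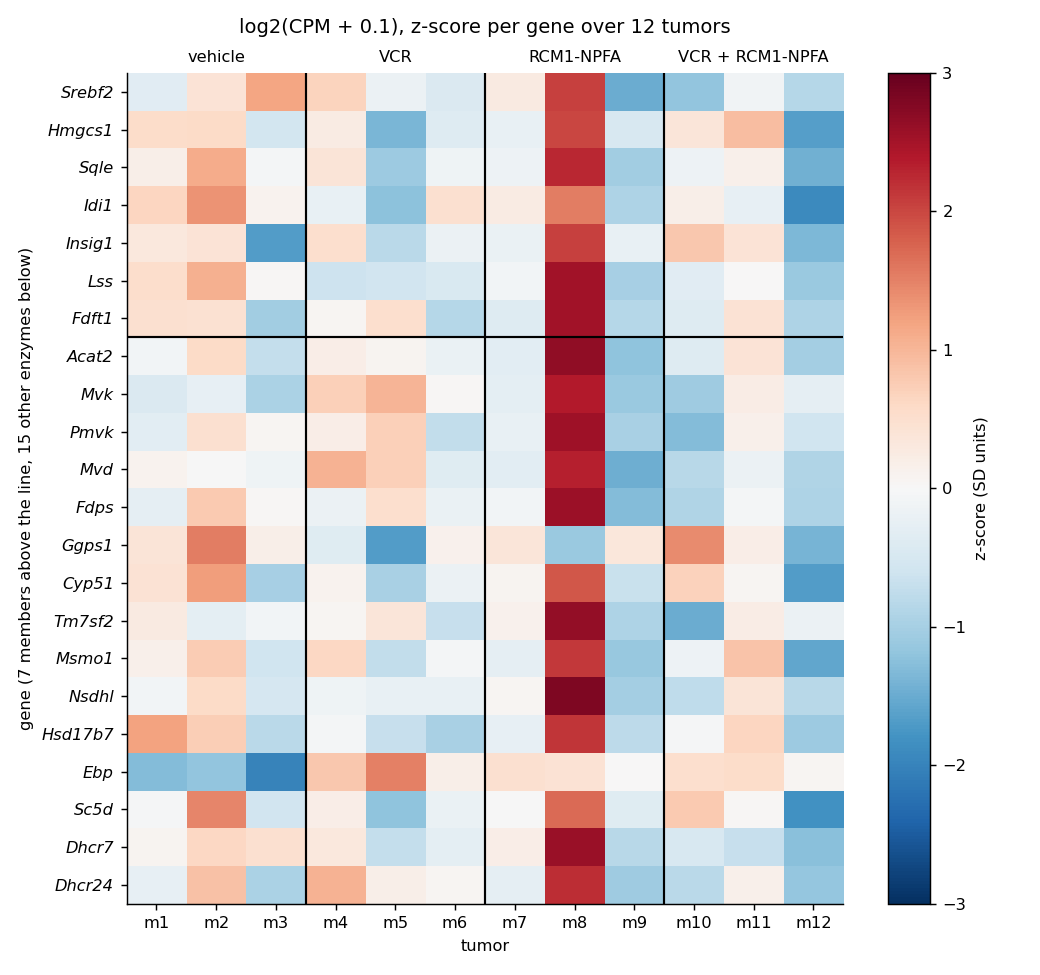
Standardized log2(CPM + 0.1) of the 7 members (above the line) and the 15 other sterol synthesis enzymes (below) in each tumor, in SD units per gene over the 12 tumors. The column of m8 is red for all 7 members and most other enzymes, m12 is mostly blue, and Ebp is low in the 3 vehicle tumors.

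Many other enzymes of sterol synthesis varied with the members, but not all. Among the other 17592 genes tested, the 10 whose log2 CPM correlated best with the members' mean were Msmo1 (r = 0.958), Acat2 (0.924), Gm5915 (0.921), Nsdhl (0.919), Cyp51 (0.916), Hsd17b7 (0.913), Acly (0.907), Dhcr7 (0.907), Fads2 (0.900) and Gm38481 (0.889), over 12 tumors. Of these, 6 genes, Msmo1, Nsdhl, Cyp51, Hsd17b7, Dhcr7 and Acat2, encode sterol synthesis enzymes. Acly makes cytosolic acetyl-CoA and Fads2 is a fatty acid desaturase. Gm5915 is annotated as a transcribed pseudogene, at 0.291 to 1.37 TPM, so its reads may belong to a similar gene. Of the 15 other synthesis enzymes, 11 (73.3%) were in the first 100 genes of this order, which hold 0.568% of all genes, and their median r was 0.849, against -0.01 over all genes.

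Msmo1, the sterol C4-methyl oxidase, illustrates the likeness. It stood at 106, 117 and 83.7 TPM in the vehicle tumors, 105, 79.6 and 99.2 TPM after VCR, 94.1, 137 and 81.9 TPM after RCM1-NPFA and 102, 117 and 74.0 TPM after VCR + RCM1-NPFA, with m8 highest and m12 lowest. Fdps, farnesyl diphosphate synthase and the most abundant enzyme of the list, reached 544 TPM in m8 and lay between 249 and 404 TPM elsewhere. The lowest r of the list were those of Ebp (-0.09, and 0.33 with the group means taken off) and Ggps1 (0.14), which makes geranylgeranyl diphosphate. For Ggps1 this rested on m8, without which r was 0.661, while Mvk (0.113 in place of 0.613) and Tm7sf2 (0.183 in place of 0.695) fell.

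The likeness leaned on m8 in part. With the group means taken off, 10 of the 15 enzymes were in the first 100 genes, with a median r of 0.862. Without m8, 7 of 15 were, with a median r of 0.693, and 2 of the first 10 genes stayed in the first 10. Without both m8 and m12, the highest and the lowest tumor, 5 of 15 were in the first 100, with a median r of 0.591. Msmo1 kept r = 0.931 without m8 and 0.891 without both.

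**Figure D4:**
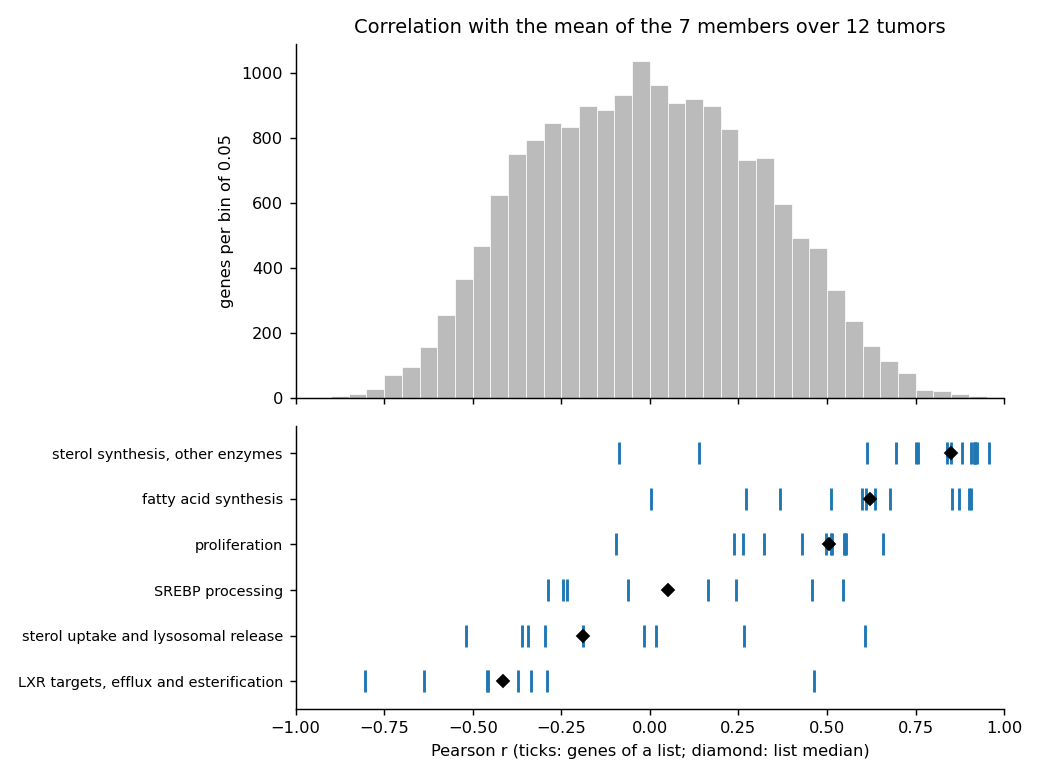
Above, the number of genes (vertical axis) by Pearson r with the mean of the 7 members over 12 tumors (horizontal axis), for 17592 genes. Below, r of each gene of 6 lists (ticks) with the list median (diamond): 0.849 for the other sterol synthesis enzymes, 0.622 for fatty acid synthesis and -0.413 for LXR targets, efflux and esterification.

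Fatty acid synthesis, which SREBPs also drive, shared this order in part, with a median r of 0.622 and 4 of 12 genes in the first 100. Without m8 its median r was 0.640. Proliferation genes had a median r of 0.505, with 0 of 12 in the first 100, and of 0.164 without m8. SREBP processing genes had a median r of 0.05, and uptake and lysosomal release genes one of -0.19. Genes of the LXR side, which responds to surplus sterol by export and storage, had a median r of -0.41. Without m8 this median was -0.31, with Abca1 at 0.08 in place of -0.29 and Soat1 at 0.20 in place of -0.34. The lowest r of the LXR list was that of Ch25h, singled out here after its values were seen. It encodes cholesterol 25-hydroxylase, whose product 25-hydroxycholesterol is known to block SREBP processing. Its r was -0.803, rank 17576 of 17592, and -0.806 with the group means taken off. Without m8 its r was -0.634, at rank 17222. Ch25h was lowest in m8 (8.13 TPM), followed by m2 (9.97 TPM), and highest in m6 (17.7 TPM) and m5 (17.1 TPM). It did not order the tumors as a mirror image throughout, since m1, with a members' mean of 0.333, had 15.1 TPM.

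By treatment, the wider pathway gave few calls by edgeR, all between VCR and vehicle. Of the 15 other synthesis enzymes 1 rose (Ebp) and 0 fell, with a median log2 fold change of -0.04. Of 12 fatty acid synthesis genes 0 rose and 1 fell (Scd2), with a median of -0.18, and of 12 proliferation genes 1 rose, Plk1, a mitotic kinase (0.36, SE 0.08, adjusted p 0.0712 by edgeR). These counts stand beside 5.54% of all genes called. The Plk1 call was lost with the muscle term (0.30, adjusted p 0.574), in the fit of only the groups compared (0.34, 0.127), without m5 and m9 (0.28, 0.209) and when any of 5 single tumors was left out. The lists of SREBP processing (8 genes), uptake and lysosomal release (9) and LXR targets, efflux and esterification (8) had 0 calls. Against vehicle, RCM1-NPFA and the combination had 0 calls in all 6 lists by edgeR.

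Ebp, the sterol isomerase that acts between lanosterol and cholesterol, was the 1 called enzyme. It was at 36.0, 36.4 and 28.4 TPM in the vehicle tumors, 47.3, 51.1 and 45.0 TPM after VCR, 46.6, 44.7 and 43.3 TPM after RCM1-NPFA and 49.5, 48.5 and 42.4 TPM after VCR + RCM1-NPFA. All 9 treated tumors were above all 3 vehicle tumors, which the 3 comparisons share. In the single comparisons, 24.4% (VCR), 11.4% (RCM1-NPFA) and 12.6% (combination) of all genes were apart from vehicle in either direction. Summed endothelial markers also split the treated from the vehicle tumors. They were at 160.5, 117.5 and 135.2 CPM in vehicle and at 160.7 to 217 CPM in the treated tumors. Their part in the Ebp difference was not tested. The log2 fold change was 0.59 for VCR (SE 0.09, adjusted p 0.0651 by edgeR), 0.45 for RCM1-NPFA (SE 0.09, adjusted p 0.419) and 0.47 for the combination (SE 0.09, adjusted p 0.668), and DESeq2 on all tumors called all 3 (adjusted p 1.8e-05, 0.00719 and 0.0129). The call for VCR was lost with the muscle term (log2 fold change 0.54, adjusted p 0.499) and without m2, m4, m5 or m11, where the log2 fold change stayed at 0.50 or above. Without m8 it held (adjusted p 0.0791), and likewise with a term for Y-linked RNA (adjusted p 0.0439), which was present in 1 of 3 vehicle tumors and in 2 of 3, 2 of 3 and 2 of 3 tumors of the treated groups.

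Scd2, a stearoyl-CoA desaturase and the most abundant gene of its list, was at 237, 236 and 253 TPM in the vehicle tumors and at 165, 137 and 190 TPM after VCR, a log2 fold change of -0.51 (SE 0.14, adjusted p 0.0931 by edgeR). RCM1-NPFA tumors had 252, 261 and 204 TPM, and the combination 203, 237 and 165 TPM. The VCR tumors were apart from the vehicle tumors, as 24.4% of all genes were in either direction. They were also apart from the RCM1-NPFA tumors, a comparison that was not tested and for which the share over all genes was not counted. Both other treated groups overlapped vehicle. The call was lost without tumors m5 and m9, which were rich in muscle RNA (log2 fold change -0.43, adjusted p 0.242), with the muscle term (-0.30, adjusted p 0.651), with the term for Y-linked RNA (-0.55, adjusted p 0.107) and when any of 9 single tumors was left out.

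**Figure D5:**
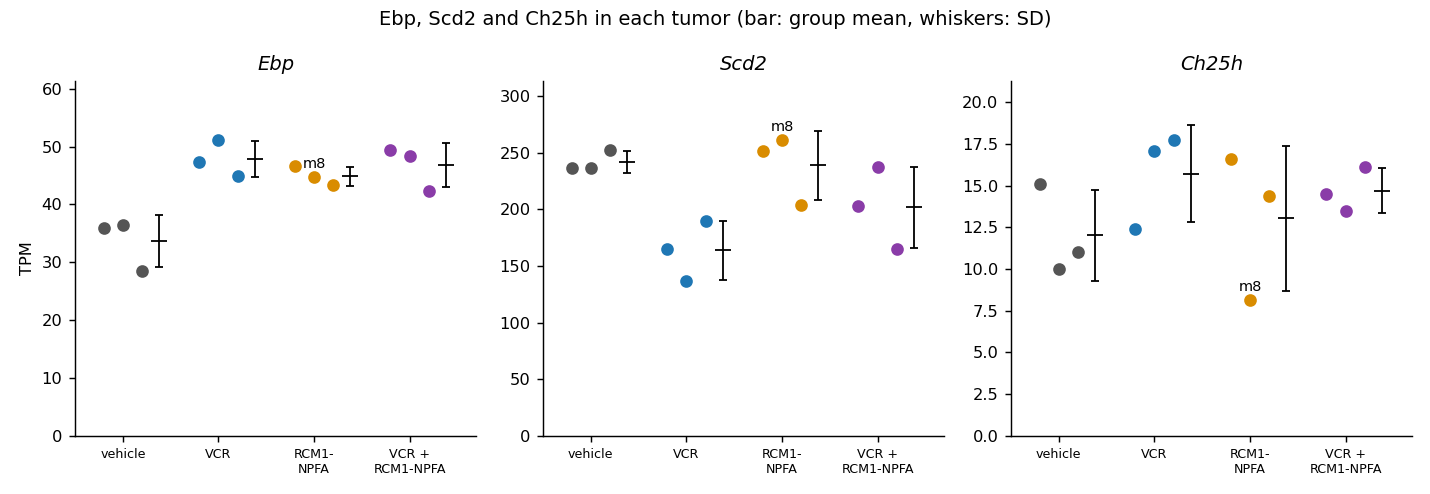
TPM (vertical axis, from 0) of Ebp, Scd2 and Ch25h in the 3 tumors of each group (points), with the group mean and SD. Ebp is lower in the 3 vehicle tumors than in all others, Scd2 is lower after VCR than in vehicle, and Ch25h is lowest in m8.

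Of the other genes that turn SREBP2 on, Mbtps2 and Mbtps1, which encode its proteases, had log2 fold changes of -0.39 and -0.25 for VCR (SE 0.12 and 0.08), and neither passed (adjusted p 0.111 and 0.110 by edgeR). For both genes the VCR tumors lay below all vehicle tumors, with Mbtps2 at 9.02, 7.28 and 11.01 TPM against 12.57, 12.44 and 12.02 TPM. In this comparison 2 of the 8 SREBP processing genes were apart, beside 24.4% of all genes in either direction. On the export side, Abca1, the cholesterol exporter, was at 4.74, 4.02 and 4.81 TPM after VCR against 9.30, 5.46 and 6.67 TPM in vehicle (log2 fold change -0.60, SE 0.20, adjusted p 0.126 by edgeR). Soat1, which esterifies cholesterol, had a log2 fold change of -0.37 (SE 0.12, adjusted p 0.113 by edgeR). Among uptake genes, Gramd1b (-0.41), Lrp1 (-0.19) and Scarb1, the high-density lipoprotein receptor (0.26), had the lowest unadjusted p for VCR, with adjusted p of 0.116, 0.117 and 0.134 by edgeR. With the muscle term in the fit, the log2 fold change for VCR was -0.08 for Mbtps1, -0.35 for Mbtps2, -0.74 for Abca1, -0.47 for Soat1, -0.48 for Gramd1b, -0.21 for Lrp1 and 0.11 for Scarb1, and none passed.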

How the data were processed

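Poly-A libraries of 12 tumors were quantified by the authors with kallisto against GRCm38 transcripts, and the deposited files give, for each of 120299 transcripts, an estimated count (not normalized, not whole, since shared reads are divided), a TPM value and transcript lengths, which were used as deposited. A stranded kit is named for libraries described as non-stranded, and kallisto was run with its standard settings, which ignore strand, so antisense reads may be included. Here 120289 transcripts were assigned to genes in the RefSeq annotation of GRCm38.p6 and summed per gene; the other 10 were left out. The labels do not say whether tumors were handled together, and no batch is given.

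Counts were rounded, kept by filterByExpr (minimum count 10), normalized by TMM and tested with edgeR 4.0.16 (R 4.3.3) in one quasi-likelihood fit of 4 groups, with 8 contrasts, each adjusted by Benjamini-Hochberg with a threshold of 0.1. The study used DESeq2, which (version 1.42.0), with limma 3.58.1, served as an alternative. The edgeR step was checked on simulated data with 200 changed genes. Correlations used log2(CPM + 0.1). Single genes were tested by exact permutation. Estimates were also made with other filters, size factors, length offsets, a term for muscle markers, without each tumor and, added after seeing the data, with a Y-linked RNA term. Correlations were also taken, after seeing the data, by rank, without m8, and without m8 and m12. All 7 genes were named; other genes named are the called ones and those of lowest p in 6 lists fixed by role, each list's most abundant gene, and the 10 most alike. The result for 1 gene is not reported here. The genes and lists were chosen with earlier results of these data known. Figures were drawn with matplotlib 3.10.9 in Python 3.11.15.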

Additional observations from a re-analysis of the deposited data

Results flagged for a closer look

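For Lrp1, a receptor for lipoproteins, every RCM1-NPFA tumor was below every vehicle tumor in CPM, while every VCR + RCM1-NPFA tumor was above every VCR tumor. The difference between these effects of RCM1 was 0.18 on the log2 scale (0.1752, SE 0.09, unadjusted p 0.0687 and adjusted p 0.395 by edgeR), which did not pass. Fasn, fatty acid synthase, showed the same crossing pattern, with a difference of 0.39 (0.3894, SE 0.14, unadjusted p 0.0172 and adjusted p 0.297 by edgeR), which did not pass either. The Fasn groups were apart by narrow margins in CPM. In TPM the vehicle and RCM1-NPFA tumors overlapped for both genes, and the VCR and VCR + RCM1-NPFA tumors overlapped for Fasn. Both genes were flagged for this pattern. Of all genes tested, 11.4% were apart between RCM1-NPFA and vehicle in either direction. The share apart between VCR + RCM1-NPFA and VCR was not counted, nor was the share that crossed. Whether such crossing is unusual among all genes was therefore not tested.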

How the results depend on the processing

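No paired analysis was possible because the labels pair no tumors across groups. Members called stayed at 0 in every comparison and setting, leaving out single tumors included, except for 1 member (Lss) between VCR and vehicle with DESeq2 on only the groups compared. With 3 tumors per group, the SE of a member's log2 fold change between a treated group and vehicle was between 0.13 and 0.21. Changes of that size were not detectable, and larger ones could be missed too. For Ebp, a log2 fold change of 0.47 after the combination did not pass (adjusted p 0.668 by edgeR). Calls among all genes depended on the setting, and the cause was not tested. All VCR and combination tumors held more muscle RNA than all vehicle tumors, so the muscle term and these treatments cannot be fully told apart. Between VCR and vehicle, the 975 genes became 648 with no filter, 1 with the muscle term, 2197 with DESeq2, 465 with only the groups compared, 376 with a term for Y-linked transcripts, 253 without m5 and m9, 9 at a threshold of 0.05, and from 0 to 1998 when single tumors were left out (lowest without m2, m4 and m5, highest without m6). RCM1-NPFA against vehicle gave 278 genes with DESeq2, 34 with DESeq2 on only the groups compared and 0 to 8 without single tumors. The combination against vehicle gave 60 and 251 with these forms of DESeq2, 138 without m5 and m9, and 0 to 44 without single tumors. DESeq2 on only the groups compared gave 41 genes for the combination against VCR and 19 against RCM1-NPFA. The VCR average gave 160 with DESeq2, 268 without m5 and m9, and 0 to 341 without single tumors, and the interaction 467 with DESeq2 and 0 to 1 without single tumors.

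Signs of small log2 fold changes turned in some settings. For VCR the muscle term gave Srebf2 0.20, Sqle 0.14, Idi1 0.012, Lss 0.0040 and Fdft1 0.076, length offsets gave Fdft1 0.013, and a mean count of 50 gave Insig1 -0.0018. For RCM1-NPFA the muscle term gave Srebf2 0.15 and Idi1 0.070, leaving out m5 and m9 gave Srebf2 0.12 and Idi1 0.059, limma-voom gave Sqle -0.011 and Lss -0.019, and length offsets gave Lss -0.11. For the combination the muscle term gave Srebf2 0.029, Hmgcs1 0.0073, Sqle 0.029 and Fdft1 0.017. Without single tumors, VCR gave Insig1 -0.11 to 0.094 and Fdft1 -0.11 to 0.035. RCM1-NPFA gave Srebf2 -0.16 to 0.12, Hmgcs1 -0.13 to 0.19, Sqle -0.28 to 0.22, Idi1 -0.30 to 0.061, Lss -0.30 to 0.23 and Fdft1 -0.13 to 0.25, each lowest without m8 and highest without m9. The combination gave Hmgcs1 -0.20 to 0.11, Insig1 -0.073 to 0.19 and Fdft1 -0.15 to 0.0083.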
